A study of Mus musculus with 5 samples.

Results

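Chromosomes 12 and 14 carried 3 neighbourhoods of high 4C signal for the β-major promoter, and all 3 stood above the detection threshold in untreated, α-amanitin treated and DRB treated fetal liver cells. The chromosomes were represented by every array probe assigned to chromosome 12 (52259 probes) or chromosome 14 (49257 probes), together 101516 of the 385000 probes. 4C (chromosome conformation capture on chip) records DNA contacts of a chosen viewpoint by ligating crosslinked restriction fragments and hybridising the captured fragments to an array. The viewpoint was the promoter of β-major, an adult β-globin gene on chromosome 7, so chromosomes 12 and 14 lie in trans to it. The arrays measure hybridisation signal, and whether a high signal there reflects a contact was not tested. Cells came from mouse fetal livers at 14.5 dpc, were brought into culture and were digested with HindIII and NlaIII. Untreated cells gave 2 arrays (A and B). Cells exposed for 5 h to α-amanitin, a toxin that binds RNA polymerase II and blocks initiation and elongation, gave 2 arrays (A and B). The labels give its concentration as 100 mg/ml, and the methods of the study give the same figure in µg/ml. Cells exposed for 3 h to 100 µM DRB, a kinase inhibitor that stops productive elongation, gave 1 array and so have no replicate. The methods of the study give 5 h of incubation for control cells, so DRB and time in culture cannot be told apart. The strain was not given in the sources used here, livers are a mixture in which erythroid cells predominate, and no expression was measured on these arrays, so the labelled tissue could not be checked against its markers.

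Contacts within a chromosome far outnumber those between chromosomes in 4C, because each chromosome occupies its own territory in the nucleus. A contact between chromosomes is therefore called from neighbouring probes that are raised together rather than from 1 bright probe, since capture of a fragment is rare in any cell and single fragments are amplified to very different levels. Active genes on different chromosomes are known to meet at the edges of territories, and inhibitors of RNA polymerase II are used to ask whether such contacts need ongoing transcription. The study reports that the mouse β-globin locus stays inside its own territory and so makes no contacts with other chromosomes. The few high neighbourhoods on chromosomes 12 and 14 are therefore described here by their level in each array, without an answer to that question.

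Probes were placed along each chromosome by the running number in their name, because the position field held 0 throughout. Genome coordinates, genes and probe sequences were therefore not assigned, and places are given below as ranks in that order. The order carried information about neighbours: after a high probe the next one was high far more often than probes further on, as described below. Array medians over the 6 chromosomes other than 7 lay between 410.78 and 673.11 intensity units. The dye was Cy3 for both A arrays and Cy5 for both B arrays and DRB, so dye and replicate letter cannot be told apart, and DRB cannot be told apart from its single array.

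A running median over 29 neighbouring probes was compared, array by array, with the highest running median found after placing the probes of the 6 chromosomes in random order 100 times. This threshold was 1131 and 1063 in untreated (A and B), 1188 and 768 in α-amanitin and 1738 in DRB. Relative to the median probe it was 2.41 and 2.59 in untreated, 1.76 and 1.67 in α-amanitin and 3.76 in DRB. A neighbourhood thus had to rise least above the typical probe in α-amanitin and most in DRB to be called.

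Of the 101460 windows on chromosomes 12 and 14, 78 exceeded the thresholds of both untreated arrays, which is 0.0769% against 0.0964% of all windows on the 6 chromosomes. They formed 1 region on chromosome 12 and 2 on chromosome 14. Both α-amanitin arrays were above threshold in 89 windows (0.0877% against 0.127% over the 6 chromosomes). DRB was above threshold in 121 windows (0.119% against 0.093%). All 5 arrays were above threshold in 69 windows, 0.068% against 0.0731%, and those lay in the 3 untreated regions. Since the untreated arrays chose the regions, their untreated level is a description and no test was made of their treated level against it. The count of 3 regions depended on the settings: it was 1 with windows of 15 probes, 6 with windows of 59, 0 with running means in place of medians, up to 8 with other seeds for the random orders, and 8 with untreated B alone.

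**Figure D1:**
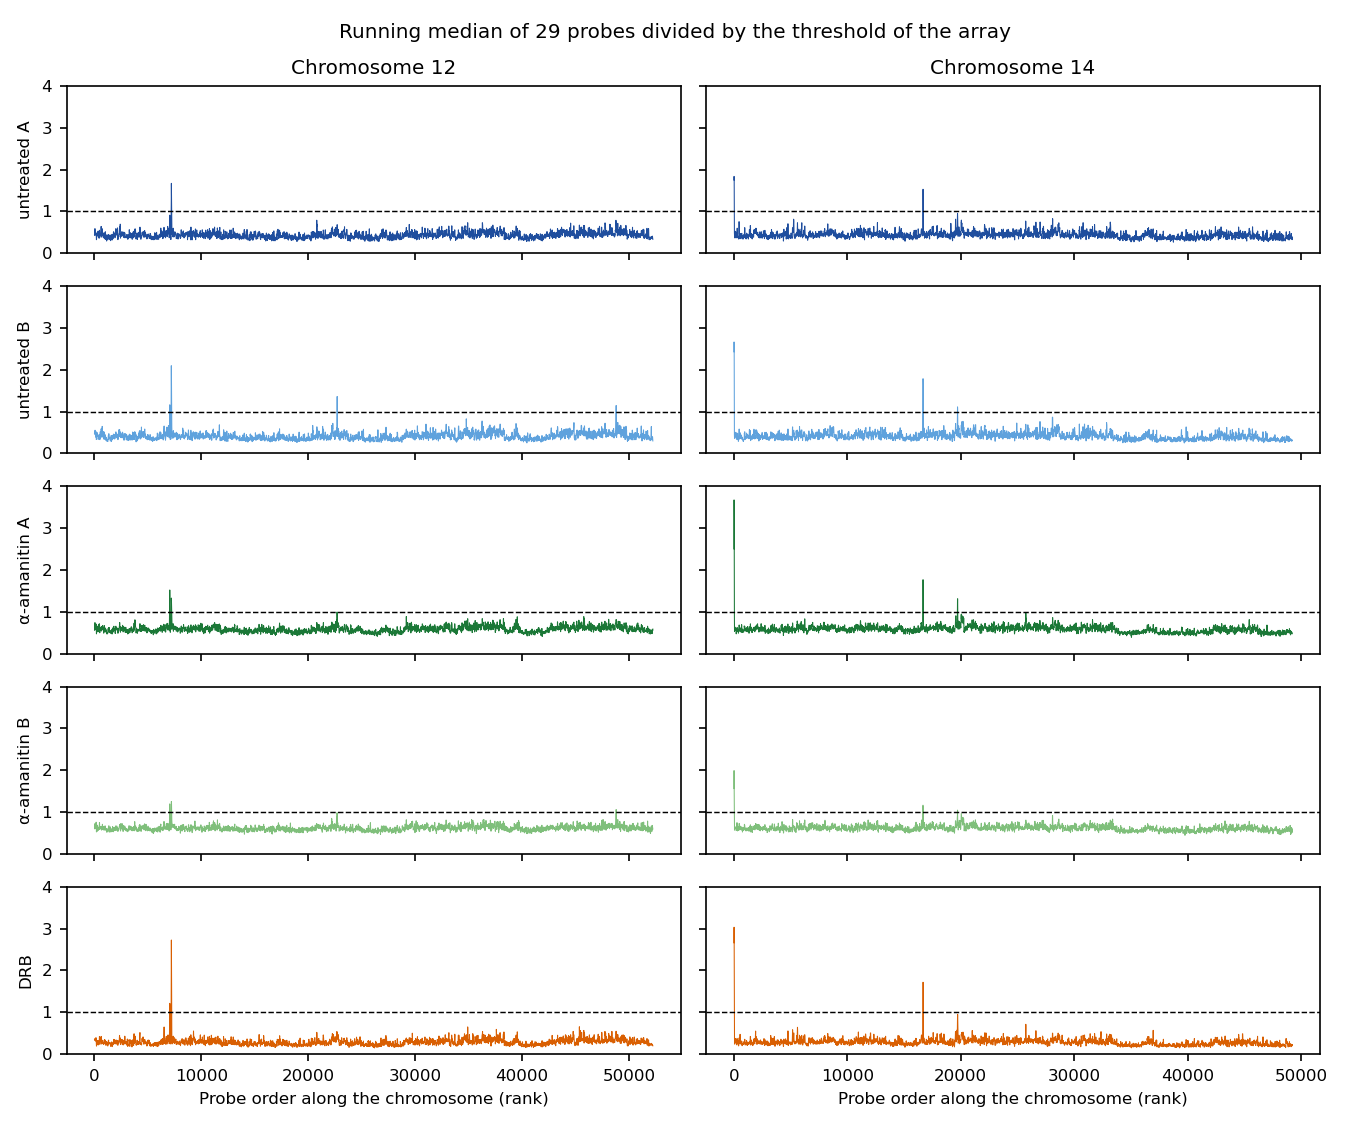
Running median of 29 probes divided by the threshold of each array (y axis, 1 at the dashed line) along the probe order of chromosome 12 (left) and chromosome 14 (right), 1 row per array. The same 3 spikes pass the line in all 5 rows, and the remaining windows stay mostly below 1.

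The chromosome 12 region covered 60 probes, ranks 7185 to 7244. Its median signal was 1207 and 1445 in untreated (A and B), 1207 and 754 in α-amanitin and 2779 in DRB. The highest running median was 1.67 and 2.10 times the threshold in untreated, 1.33 and 1.25 times in α-amanitin and 2.73 times in DRB. Relative to the chromosome median the region stood at 2.64 and 3.62 in untreated, 1.83 and 1.66 in α-amanitin and 6.22 in DRB. On this scale DRB was highest and both α-amanitin arrays lay below both untreated arrays. The wider spread of all probes on the DRB array and the narrower spread on the α-amanitin arrays, seen in the thresholds above, ran in the same order, and their part in the result was not tested. After quantile normalization, which gives all arrays the same distribution, the log2 difference was -0.21 (SE 0.40) for α-amanitin minus untreated and 0.33 (SE 0.49) for DRB minus untreated. Both differences were smaller than their standard errors, but with arrays centred on their medians they were -0.80 (SE 0.39) and 1.0 (SE 0.47). With the mean signal of the region in place of its median they were -0.72 (SE 0.37) and -0.24 (SE 0.46), so the size for both inhibitors and the direction for DRB depended on the processing.

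The first chromosome 14 region covered 54 probes at the very start of the probe order, ranks 1 to 54. Its median signal was 1226 and 1827 in untreated (A and B), 2499 and 1100 in α-amanitin and 2824 in DRB. Here the highest window of the whole chromosome was found in each of the 5 arrays. The peak reached 1.84 and 2.67 times the threshold in untreated, 3.68 and 1.99 times in α-amanitin and 3.03 times in DRB. Over the chromosome median the region stood at 2.67 and 4.55 in untreated, 3.79 and 2.43 in α-amanitin and 6.33 in DRB. The α-amanitin arrays lay within the range of the untreated pair or just below it, so the groups overlapped. The quantile normalized log2 difference was 1.06 (SE 0.60) for α-amanitin and 0.19 (SE 0.74) for DRB, both against untreated. The α-amanitin value was carried by array A, at 12.28 on the log2 scale, while array B at 10.96 lay close to untreated B at 10.83. Without array A the difference was 0.40 (SE 0.53), and without array B 1.71 (SE 0.55). With arrays centred on their medians it was -0.18 (SE 0.52) for α-amanitin and 0.84 (SE 0.64) for DRB, so the direction for α-amanitin depended on the scale. The DRB value was -0.08 (SE 1.07) without untreated A.

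The second chromosome 14 region covered 48 probes, ranks 16667 to 16714, 33.9% of the way along the order. Its median signal was 1070 and 984 in untreated (A and B), 1404 and 698 in α-amanitin and 1414 in DRB. It had the lowest untreated peaks of the 3 regions, 1.53 and 1.79 times the threshold, with 1.77 and 1.16 times in α-amanitin and 1.72 times in DRB. Over the chromosome median it stood at 2.33 and 2.45 in untreated, 2.13 and 1.54 in α-amanitin and 3.17 in DRB. The order of untreated and α-amanitin depended on the scale: both α-amanitin arrays were lower relative to the chromosome median, whereas after quantile normalization array A (10.70) was above and array B (9.93) below the untreated pair (10.09 and 10.01). The quantile normalized log2 difference was 0.26 (SE 0.36) for α-amanitin and 0.01 (SE 0.44) for DRB. With arrays centred on their medians it was -0.38 (SE 0.30) and 0.39 (SE 0.37), and without α-amanitin A the α-amanitin value was -0.12 (SE 0.36). No direction is therefore given for this region.

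**Figure D2:**
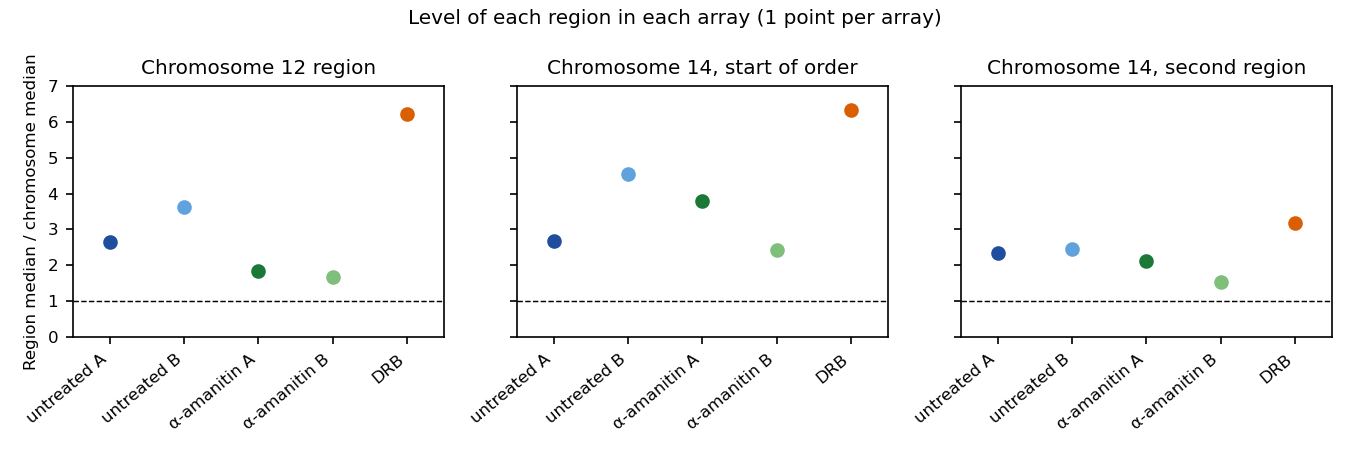
Median signal of each region divided by the median of its chromosome (y axis, linear from 0), 1 point per array, with the chromosome median at the dashed line. All 15 points lie above 1, including those of the untreated arrays, which chose the regions. They run from 1.54 for the second chromosome 14 region in α-amanitin B to 6.33 for the first in DRB.

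Most probes of each region were raised. In the untreated arrays this follows from the choice by running median, so the values of the 3 treated arrays, which the choice did not use, are given here. In the chromosome 12 region 54 and 58 of 60 probes exceeded the chromosome median in α-amanitin and 57 in DRB. The counts were 52, 52 and 53 of 54 probes in the first chromosome 14 region and 40, 40 and 42 of 48 in the second. The second region of chromosome 14 thus held the most probes at ordinary levels.

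Bright probes were nevertheless frequent inside the regions. Probes above the 95th percentile of the 6 chromosomes made up 31.7 to 41.7% of the chromosome 12 region, 35.2 to 72.2% of the first chromosome 14 region and 20.8 to 35.4% of the second. The brightest probe held between 5.86% and 33.6% of the summed signal of a region. In all 5 arrays, untreated included, leaving out the 5 brightest probes lowered the median of the chromosome 12 region to 1095, 1292, 1168, 716 and 2242 (both untreated arrays, both α-amanitin arrays and DRB), all above the chromosome median. Every other region kept its median above that of its chromosome in the same way, the lowest value being 639 in α-amanitin B for the second chromosome 14 region. Odd and even ranked probes both stayed above the chromosome median in all 3 regions in each treated array. The same held in the untreated arrays, which had chosen the regions. Both outcomes, with the brightest probes left out and with odd and even ranks, were fixed by the number of probes above the chromosome median. They are therefore descriptions and add no support.

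The flanks were lower than the regions, though not all at the chromosome level. Left of the chromosome 12 region the median was 404, 371, 700, 436 and 465 in the same order of arrays, close to the chromosome medians of 457, 399, 661, 453 and 447. On its right it was 573, 501, 815, 513 and 463. Left of the second chromosome 14 region it was 507, 515, 759, 526 and 552, against chromosome medians of 459, 401, 660, 453 and 446. These flanks were thus above the chromosome median in all 5 arrays and below the region itself. On the array surface the probes of the chromosome 12 region lay in columns 34 to 749 and rows 31 to 1012; how evenly they were spread was not tested. Within the regions the same probes tended to be bright in different arrays, with a median Spearman correlation over the 10 pairs of arrays of 0.71, 0.59 and 0.80 across 60, 54 and 48 probes. Over all probes of chromosome 12 and of chromosome 14 it was 0.67. These are correlations across probes that share their sequence between arrays, and probes are not replicates.

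**Figure D3:**
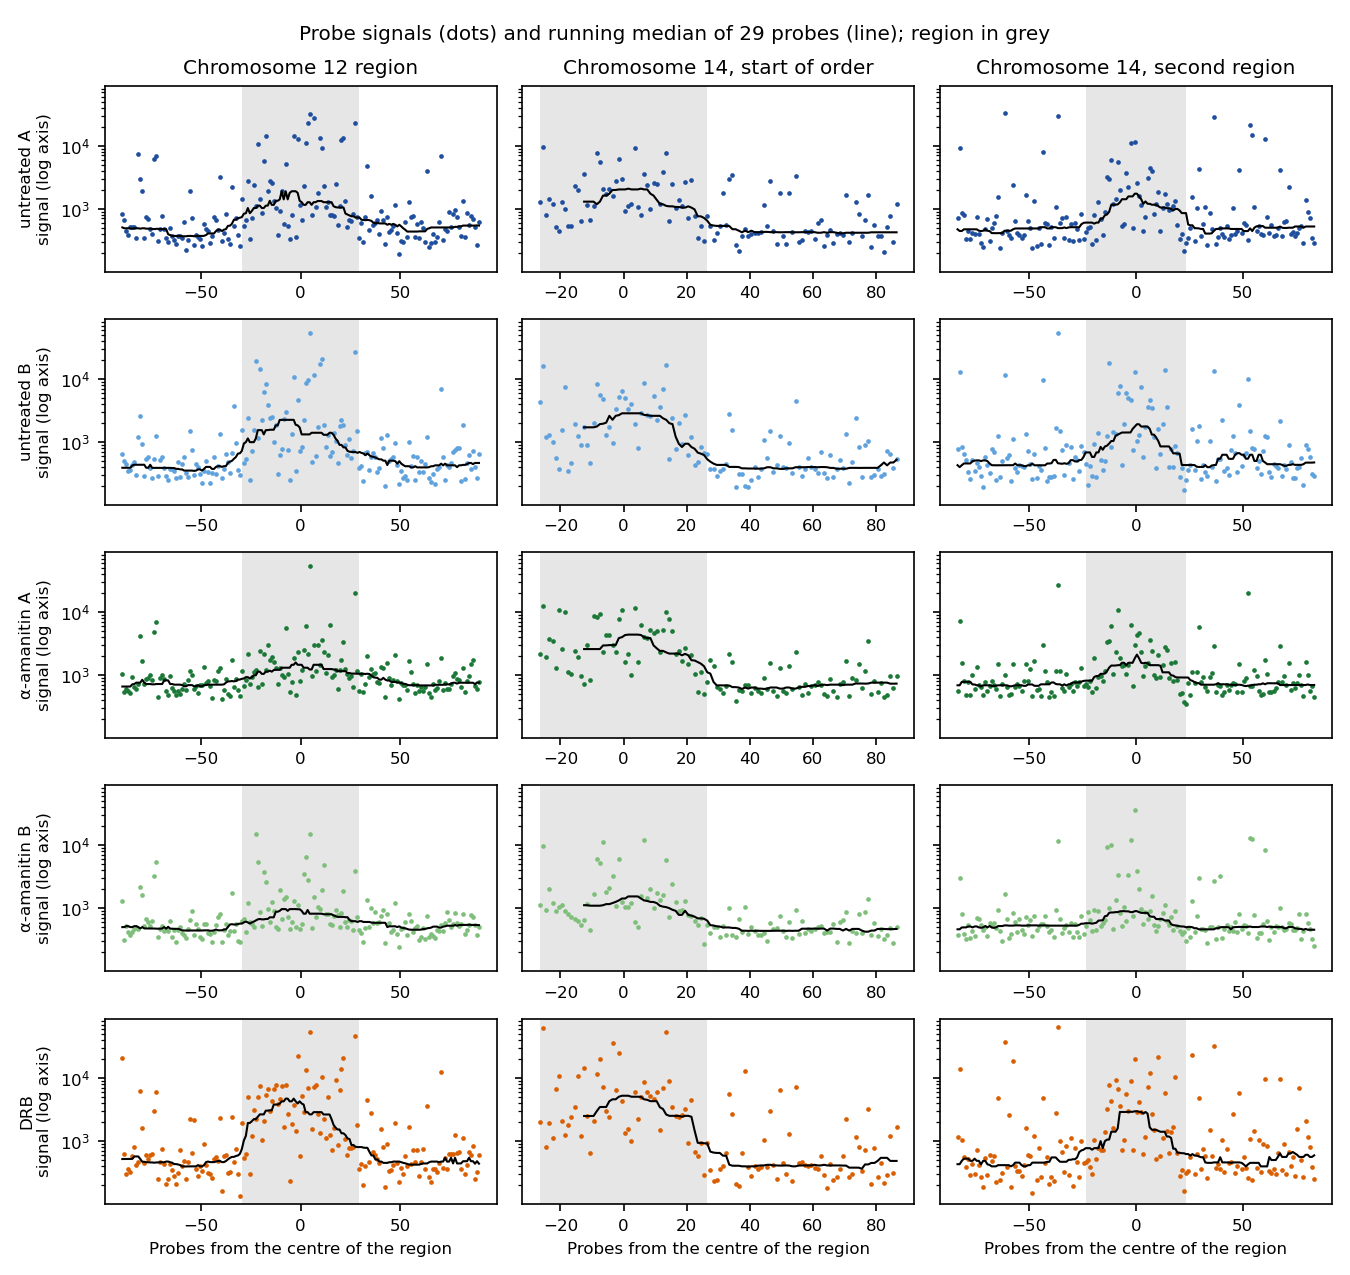
Signal of single probes (dots, log axis, intensity units) and running median of 29 probes (black line) against the distance in probes from the centre of each region (grey), 1 row per array. Most dots inside the grey area lie above the level of the flanks. In the DRB array, which did not choose the regions, 57 of 60 probes of the chromosome 12 region exceeded the chromosome median.

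Just outside the rule lay 4 further places that passed the threshold in at least 1 array. When windows that share a probe were joined, 7 places passed in at least 1 array, 3 of them in all 5 arrays and 1 in a single array. Close to the chromosome 12 region, ranks 7038 to 7098 passed in 4 arrays, with peaks of 1.16 times the threshold in untreated B, 1.52 and 1.20 in α-amanitin and 1.21 in DRB. Untreated A missed there at 0.91 times its threshold. This place was thus positive in every treated array and in 1 of 2 untreated arrays.

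On chromosome 14, ranks 19709 to 19753 passed in untreated B (1.11) and in both α-amanitin arrays (1.31 and 1.05). Untreated A reached 0.95 and DRB 0.92 of the threshold. On chromosome 12, ranks 22692 to 22735 passed in untreated B alone, at 1.36 times the threshold, although both α-amanitin arrays came close at 0.996 and 0.98. DRB reached 0.53 there and untreated A 0.68. Ranks 48798 to 48830 passed in untreated B (1.15) and α-amanitin B (1.06), both hybridised in Cy5. DRB, also in Cy5, reached 0.55 of the threshold there, untreated A 0.71 and α-amanitin A 0.82. Untreated B was above threshold at all 7 places.

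Chromosomes 10 and 15 served as comparison, being chromosomes of the same array without a double positive window. They held 1 place above threshold in any array, a single window in untreated A at 1.003 times the threshold. The share of windows above threshold on chromosomes 12 and 14 was 0.0789% and 0.156% in untreated, 0.136% and 0.0917% in α-amanitin and 0.119% in DRB. On chromosomes 10 and 15 it was 0.00091% in untreated A and 0 in the other 4 arrays. The mean difference was 0.116 percentage points (SD 0.0317, n = 5 arrays), above 0 in 5 of 5 arrays. This is a description and carries no test, because chromosomes 10 and 15 were chosen with their low counts known and the arrays share their probes.

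The high neighbourhoods coincided with places where few of the running numbers were on the array. Overall 75.7% of the numbers spanned on chromosome 12 and 74.8% of those on chromosome 14 belonged to a probe. In the chromosome 12 region the 60 probes were spread over 1318 numbers, so that 4.55% were present. The first chromosome 14 region held 3.96% of 1364 numbers and the second 10.7% of 449 numbers. By the design text, candidate probes resembling abundant repeats or with more than a pair of genomic matches had been discarded. Whether the absent numbers are those probes is not stated, and the part of this thinning in the signal was not tested.

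This property did not depend on any measured signal. Windows in which fewer than 1 in 3 numbers were present made up 670 of the 101460 windows (0.66%) and formed 20 stretches. They held all 78 double positive windows, 11.6% of the 670, while none of the denser windows on chromosomes 12 and 14 was double positive. The 3 regions thus vanished when sparse windows were left out, and the mean difference from chromosomes 10 and 15 fell to 0.00494 percentage points, above 0 in 2 of 5 arrays.

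Sparse numbering was not always accompanied by high signal. The median window with sparse numbers, the regions included, had a running median of 565 and 510 in untreated, 801 and 525 in α-amanitin and 647 in DRB, against 459 and 403, 668 and 455, and 452 where at least 2 in 3 numbers were present. Sparse windows were thus somewhat higher in all 5 arrays. Of the 20 sparse stretches, 15 stayed below the threshold in all 5 arrays, and 12 had a median above that of the chromosome in all 5. In the stretches without a double positive region, the median signal ranged from 0.85 to 2.90 times the chromosome median, with a median of 1.09 over stretches and arrays. That exception covered ranks 1328 to 1390, where 10.9% of the numbers were present, and 5.38% in the sparsest window. Its peak was 0.47 times the threshold in both untreated arrays, 0.59 and 0.63 in α-amanitin and 0.27 in DRB. Its level was that of the chromosome as a whole.

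Chromosomes 10 and 15 had 149 sparse windows in 12 stretches, none double positive, but their sparsest window still held 22.5% of its numbers, against 2.65% on chromosome 12 and 2.81% on chromosome 14. On chromosome 8, 15 of 207 double positive windows were sparse, but these were 15.2% of its 99 sparse windows, against 0.281% of the windows with at least 2 in 3 numbers present. On chromosome 11, 0 of 30 double positive windows were sparse. Sparse windows were thus double positive more often than dense ones on chromosome 8 too. Its 99 sparse windows overlap and formed only 3 stretches, so this rests on few places. A difference between chromosomes was not tested.

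**Figure D4:**
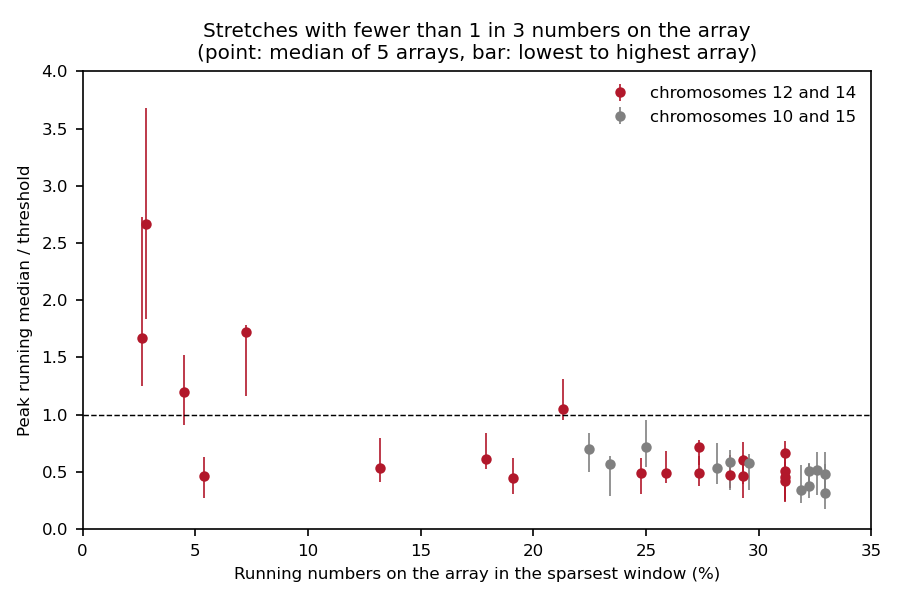
Highest running median over threshold (y axis, 1 at the dashed line) against the share of running numbers on the array in the sparsest window (x axis, percent), for each stretch with fewer than 1 in 3 numbers present; points are medians over 5 arrays and bars run from the lowest to the highest array. The 3 double positive stretches of chromosomes 12 and 14 lie at 2.65, 2.81 and 7.27%. A stretch at 4.51% runs from 0.91 to 1.52, and a stretch at 5.38% reaches at most 0.63 in any array.

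Single bright probes were found along both chromosomes. A probe was counted as high when it exceeded 10 times the median of its array over the 6 chromosomes. On chromosomes 12 and 14 this held for 2.11 and 2.84% of probes in untreated, 1.15 and 1.89% in α-amanitin and 4.35% in DRB. DRB had the most high probes and α-amanitin A the fewest, and chromosomes 10 and 15 gave nearly the same shares (2.19, 2.89, 1.21, 1.84 and 4.42%). The 3 regions hold 162 of the 101516 probes (0.16%) and between 0.832% and 1.27% of the high probes, so nearly all high probes lay elsewhere, while their share in the regions, chosen for high signal, was above that of all probes.

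The probe right after a high one was itself high in 8.68 to 10.7% of cases, depending on the array. For the probe 2 ranks on it was 2.13 to 5.07%, and at 29 ranks 0.683 to 5.32%, against 1.15 to 4.35% of all probes. The share was highest at the next probe and, 2 ranks on, still above the share of all probes in each of the 5 arrays. No other high probe lay within 14 ranks on either side for 49.5 and 38.5% of high probes in untreated, 60.8 and 47.5% in α-amanitin and 26.0% in DRB. Chromosomes 10 and 15 gave 46.1, 40.8, 60.1, 49.6 and 26.7% in the same order. The share was lowest in DRB, with the most high probes, and highest in α-amanitin A, with the fewest. The part of the number of high probes in these shares was not tested.

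**Figure D5:**
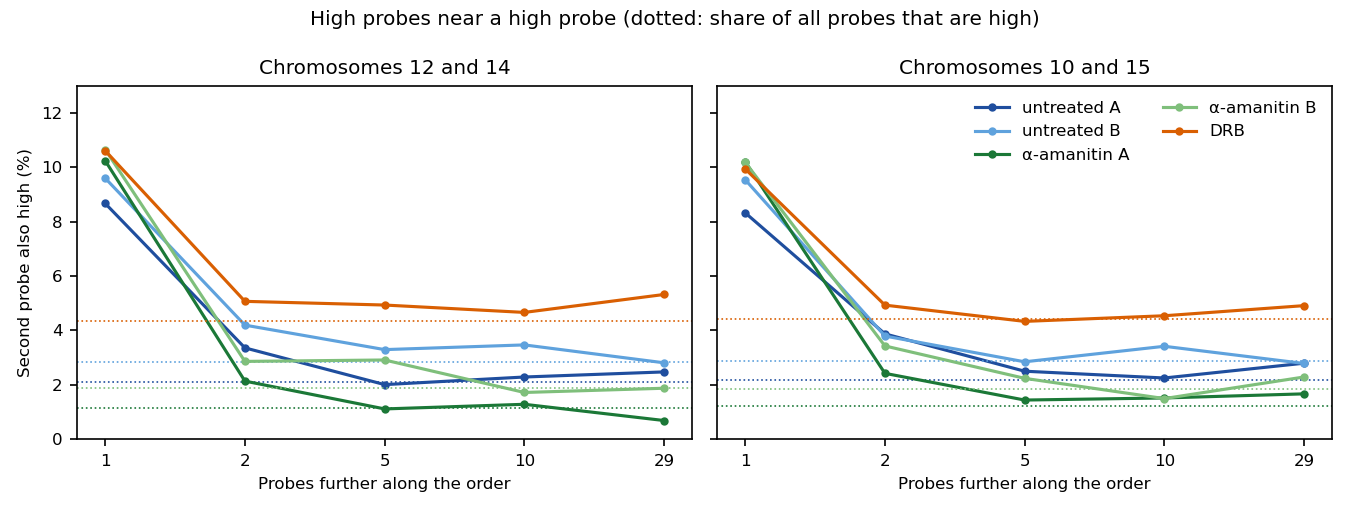
Share of high probes (over 10 times the array median) whose neighbour 1, 2, 5, 10 or 29 ranks further along was also high (y axis, percent), for chromosomes 12 and 14 (left) and 10 and 15 (right), 1 line per array, with the share of all probes that are high dotted. Every line drops from between 8.33 and 10.7% at the next probe to between 0.683 and 5.32% at 29 ranks.

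High probes recurred between arrays. Of the probes high in 1 array, a median of 41.4% were high in a second array over the ordered pairs, ranging from 17.3 to 71.3%, against overall shares of 1.15 to 4.35%. Of the 7269 probes high in any array 63.3% were high in 1 array and 381 (5.24%) in all 5. Among those 381 probes, 6 (1.57%) lay in the 3 regions. The split was close to that on chromosomes 10 and 15, where 5.57% of 7940 were high in all 5.

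The brightest recurrent probes lay where the running median stayed below the threshold in every array. On chromosome 12 probe 349769 read 61977, 65535, 65535, 65535 and 65385 in the same order of arrays, at or near the highest value the scanner gives. The running median around it was 510, 443, 781, 489 and 584, close to the chromosome median. On chromosome 14 probe 447761 read 63852, 65535, 65535, 65535 and 61812 while the running median around it was 565, 487, 818, 490 and 755. The same held for the other 8 probes picked by their lowest signal over the arrays: none lay in a region, all read at least 59255 in every array, and the running medians around them reached at most 843. With readings at or near the upper limit, no difference between treatments can be read from these probes. Not all of them stood alone. Adjoining probes read at most 1058 in any array beside probe 349769, but up to 16979 beside 447761, 14037 beside 363171 and 10150 beside 495597.

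Running means, unlike running medians, followed such probes. Windows away from the regions were picked by their running mean averaged over the untreated arrays, so lower treated values are a description and no test. The first on chromosome 14 (ranks from 27657) gave 8832 and 4515 in untreated (A, B), 756 and 10314 in α-amanitin and 8732 in DRB. Its running medians were 635, 637, 772, 490 and 631, all below threshold. Where it was high, the 3 brightest probes held 61.6 to 71.9% of the sum, and α-amanitin A had no high probe there at all. The low running mean in α-amanitin A was thus not shared by its duplicate.

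A second such window on chromosome 14, from rank 47015, had running means of 5710 and 5291 in untreated, 1138 and 695 in α-amanitin and 5951 in DRB. Here the 2 α-amanitin arrays were low together, in a window chosen on the untreated arrays. High probes numbered 6 in each untreated array and in DRB, against 1 and 0 in α-amanitin. The running medians were 512 and 446 in untreated, 606 and 501 in α-amanitin and 457 in DRB, close to the chromosome medians in all 5. The remaining window of this kind on chromosome 14 and the 3 on chromosome 12 had running means of 2662 to 7987 in every array, with the 3 brightest probes holding 54.5 to 93.6% of the sum. The window from rank 48804 of chromosome 12 overlapped the place that passed in both B arrays.

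Treatment was tested across the whole array, on windows of 29 probes that do not overlap and on single probes, with limma on quantile normalized log2 signals. Of the 3500 windows on chromosomes 12 and 14, 0 passed an adjusted p of 0.05 for α-amanitin against untreated, where 0% of all 13275 rows passed. At an unadjusted p below 0.05 there were 329 (9.4%) against 9.23% of all. For DRB against untreated the count was likewise 0, against 0% of all, and 118 windows (3.37%) had an unadjusted p below 0.05 against 3.86% of all. The single DRB array was assumed to vary like the others. The shares on chromosomes 12 and 14 were thus near those of the whole array for both inhibitors.

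The smallest p for α-amanitin belonged to a window on chromosome 14, ranks 34569 to 34597, with median signals of 540 and 538 in untreated, 580 and 401 in α-amanitin and 452 in DRB. Its quantile normalized level was 9.14 and 9.25 in untreated against 8.67 and 8.67 in α-amanitin, a log2 difference of -0.53 (SE 0.10; limma adjusted p = 0.112). The groups did not overlap on that scale, although the uncorrected signals did. The log2 difference was -0.58 without untreated A, -0.47 without untreated B, -0.53 without α-amanitin A and -0.53 without α-amanitin B. Each of these fits leaves 1 array in a group, which is assumed to vary like the other groups. For the next window, on chromosome 14 at ranks 46749 to 46777, the log2 difference was 0.46 (SE 0.09; limma adjusted p = 0.122). A window on chromosome 12, ranks 47474 to 47502, was the third for α-amanitin at 0.55 (SE 0.12; limma adjusted p = 0.206) and the first for DRB at 0.63 (SE 0.15; limma adjusted p = 0.835). None of these windows was near the threshold of a neighbourhood, their largest median signal being 838.

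Single probes gave 0 of 101516 for either inhibitor, with 0% of all 385000 passing. At an unadjusted p below 0.05 there were 7946 for α-amanitin (7.83% against 7.77% of all) and 4294 for DRB (4.23% against 4.38%). The 2 adjoining probes 444449 and 444450 of chromosome 14 were among the 3 with the smallest p for α-amanitin. Probe 444449 read 7015 and 6922 in untreated, 501 and 271 in α-amanitin and 282 in DRB, a log2 difference of -4.53 (SE 0.54; limma adjusted p = 0.625) for α-amanitin. Probe 444450 read 15781 and 20455 in untreated, 453 and 310 in α-amanitin and 473 in DRB, at -6.01 (SE 0.73; limma adjusted p = 0.625). Both neighbours were high in untreated and at background in all 3 treated arrays, and neither passed the test over the whole array, although both did on uncorrected signals (limma adjusted p = 0.000599 and 0.000207).

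Probe 498102 showed the opposite order, with 326 and 211 in untreated, 28540 and 18309 in α-amanitin and 311 in DRB (log2 difference 6.23, SE 0.75; limma adjusted p = 0.625). For DRB the 3 probes with the smallest p, all on chromosome 14, were at 224 to 467 in the other 4 arrays and read 5705 (probe 494459), 7453 (probe 483560) and 5503 (probe 485450) in DRB. Their log2 differences against untreated were 3.37, 3.85 and 3.39 (limma adjusted p = 0.162 for each). These probes were high in the single DRB array, for which no second array exists.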

How the data were processed

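4C arrays of 5 samples were analysed, each on its own slide. The authors deposited raw probe intensity of 1 channel per array, read with NimbleScan 2.3.19 without background correction or normalization. The second sample of each slide was not analysed here. Probes were ordered by the running number of their identifier. Arrays have no read depth, so their number limits precision. Running medians of 29 probes on uncorrected intensity were compared with the highest value in 100 seeded random orders of the 6 chromosomes other than 7, and adjacent windows above threshold in both untreated arrays were joined. limma 3.58.1 (R 4.3.3; quantile normalization, lmFit, eBayes with trend, Benjamini-Hochberg over the whole array) used all 5 arrays. Other steps used Python 3.11.15, numpy 2.4.6, pandas 2.3.3, scipy 1.17.1 and matplotlib 3.10.9. Both methods were tested on simulated data, with planted clusters for the regions and shifts of 3 log2 units for limma. Differences as small as those of the windows and regions here were not simulated, so their detection was not tested. Places named were the double positive regions and, per chromosome, the 3 highest running means over the untreated arrays and 5 brightest recurrent probes. The 3 windows and 3 probes with the smallest p per contrast were also named. Members, lists and comparison chromosomes were chosen with earlier results of these data known. The study describes the duplicates as independent experiments, while the labels do not name separate cultures, so p-values measure the spread between these arrays.

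Alternatives varied window, average, random order, normalization, background correction, dim probes, seed, joining, replicate block and arrays left out. The exclusion of sparse windows was chosen after seeing the data.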

Additional observations from a re-analysis of the deposited data

How the results depend on the processing

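The 3 regions, all 3 positive in both α-amanitin arrays and in DRB, stayed at 3, 3 and 3 with quantile normalization and normexp, which keep the order of probes within an array, and with windows sharing a probe joined; random orders within each chromosome gave 4, 3 and 4. In the same order of counts, windows of 15 probes gave 1, 0 and 1, windows of 59 probes 6, 6 and 6, a running mean 0, 0 and 0, and 1 random order 9, 6 and 8. Leaving out dim probes gave 8, 5 and 8, and 10 other seeds at most 8, 7 and 8 and at least 3. Omitting sparse windows gave 0 regions, and hence 0 and 0. Leaving out untreated A gave 8, 5 and 5 and leaving out untreated B 3, 3 and 3; leaving out either α-amanitin array gave 3. The cause of these shifts was not tested. The difference from chromosomes 10 and 15, recomputed under fewer settings, was 0.0209 for windows of 15 probes, 0.209 for 59, 0.00707 for running means (above 0 in 2 of 5 arrays), 0.116 after quantile normalization, 0.00494 without sparse windows and 0.106 to 0.126 leaving out 1 array.

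For limma, the α-amanitin windows on chromosomes 12 and 14 went from 0 to 6 with a replicate block, 2 with windows of 59 probes and 0 to 18 leaving out 1 array (18 without α-amanitin A, 5 without α-amanitin B, 2 without untreated A). The block was coded by dye and so placed DRB with the B arrays. The numbers do not pair the arrays: the correlation of the A arrays' deviations was 0.0497 over all windows and -0.0511 on chromosomes 12 and 14. DRB windows went from 0 to 2 of 3500 with the 2 groups alone, against 21 of all 13275. Some were also called when either α-amanitin array was left out, on chromosomes 12 and 14 and elsewhere. Uncorrected signals called 790 of 101516 probes for α-amanitin, where the median probe shifted by 0.35, against 3430 of all 385000. For DRB they called 2013, against 8632 of all. Both shares were below those of the whole array. Other alternatives with all 5 arrays gave 0 probes. The log2 differences of the 12 named windows and probes kept their direction in all 114 recomputed values. They were picked by smallest p in these same arrays, so this is a description and adds no support. With means in place of medians, the α-amanitin difference at ranks 46749 to 46777 of chromosome 14 fell from 0.46 to 0.003 (SE 0.33). The DRB difference at ranks 43588 to 43616 went from -0.42 to -0.07 (SE 0.17). The α-amanitin difference at ranks 34569 to 34597 also shrank, while those of the chromosome 12 windows grew. Values passing an adjusted p of 0.05 included the 6 probes on uncorrected signals and the α-amanitin windows with a replicate block. Of 72 values for the regions, 14 moved by at least 1 SE and 8 turned sign, 4 of them both: α-amanitin at the first chromosome 14 region (-0.18 median centred) and the second (-0.38 median centred, -0.12 without α-amanitin A), and DRB at the chromosome 12 region (-0.24 with means). A slide block was not run because each slide held 1 array.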
